A study of Homo sapiens with 22 samples.

Results

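Matrix metalloproteinases (MMPs) are the enzymes that cut collagens and other proteins of the extracellular matrix, and tissue inhibitors of metalloproteinases (TIMPs) are the proteins that block them. The 10 genes described here were 7 MMPs (MMP1, MMP13, MMP2, MMP3, MMP10, MMP12 and MMP14) and 3 TIMPs (TIMP1, TIMP2 and TIMP3). Regions were chosen by position alone. Every region of 4 deposited peak lists that overlapped a gene's RefSeq body extended by 50 kb on each side was taken, which gave 344 of 532810 regions. The HFFc6 ATAC list gave 111 of its 155746 regions and the H1 ATAC list 83 of its 189982. The HFFc6 CTCF list gave 80 of 82297 regions and the hESC-named CTCF list 70 of 104785.

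The series held 22 libraries of human cell lines in 6 groups. HFFc6 is subclone c6 of a foreskin fibroblast line immortalised with telomerase (HFF-hTERT), so it stands for 1 clone, and H1-hESC is an embryonic stem cell line. No treatment of either line is named. Open chromatin was mapped in 8 HFFc6 and 2 H1 libraries by ATAC-seq, a method that inserts adapters into accessible DNA with the transposase Tn5. The HFFc6 ATAC titles combine an R and a T number, so these 8 libraries need not be 8 independent replicates. Binding of CTCF, the DNA-binding protein at the feet of many chromatin loops, was mapped in 2 HFFc6 libraries with Cut&Tag, in which an antibody brings Tn5 to the protein. Those CTCF libraries are titled HFF1 but labelled as the cell line HFFc6. Each of these groups had 1 deposited list called for the whole group, so no value per library existed, and neither a replicate error nor a test between the lines could be computed. A 4th list carries hESC and CTCF in its name but is described by no sample label. Neither its libraries nor its assay could be told, hence the name hESC-named CTCF list. The other 10 HFFc6 libraries (SMC1, H3K4me3, H3K27ac) were not used here.

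MMPs are made as inactive proenzymes and become active when their propeptide is removed. A TIMP then stops an active enzyme by filling its catalytic site. In connective tissue, fibroblasts are a main source of collagenases, stromelysins and TIMPs, and several inducible MMP promoters are textbook examples of a TATA box paired with a site for AP-1, the factor made of FOS and JUN proteins. MMP1, MMP3, MMP10, MMP12 and MMP13 lie side by side on chromosome 11 within a larger MMP gene cluster, whereas MMP2, MMP14 and the TIMP genes each stand at a locus of their own.

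The promoters of 4 members were read from RefSeq (GRCh38 patch 14). They are shown because no promoter sequence of the other members was available here. All 4 of them overlapped a region in both ATAC lists and in both CTCF lists. Each sequence holds the 250 bases before the gene's start, 5′ to 3′ on the gene's strand. Capitals mark matches, on either strand, to an AP-1 site (TGANTCA, where N is any base), a CTCF core (CCA, any 2 bases, AG, any 2 bases, GG), a GC box (GGGCGG) or a TATA box (TATAAA). No 2 of these matches overlapped. MMP10 is on the minus strand at chr11:102780629-102780878. The other promoters are on the plus strand, MMP14 at chr14:22836335-22836584, TIMP1 at chrX:47582186-47582435 and TIMP3 at chr22:32801455-32801704.
MMP10: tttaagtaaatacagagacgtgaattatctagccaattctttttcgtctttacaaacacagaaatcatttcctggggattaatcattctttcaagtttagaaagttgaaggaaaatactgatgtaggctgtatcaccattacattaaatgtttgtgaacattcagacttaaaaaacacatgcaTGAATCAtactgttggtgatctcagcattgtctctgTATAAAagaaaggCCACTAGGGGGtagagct
MMP14: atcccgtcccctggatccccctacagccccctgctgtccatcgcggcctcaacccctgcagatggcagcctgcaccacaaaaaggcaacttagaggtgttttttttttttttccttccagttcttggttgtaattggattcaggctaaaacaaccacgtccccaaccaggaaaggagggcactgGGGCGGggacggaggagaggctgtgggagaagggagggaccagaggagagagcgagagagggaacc
TIMP1: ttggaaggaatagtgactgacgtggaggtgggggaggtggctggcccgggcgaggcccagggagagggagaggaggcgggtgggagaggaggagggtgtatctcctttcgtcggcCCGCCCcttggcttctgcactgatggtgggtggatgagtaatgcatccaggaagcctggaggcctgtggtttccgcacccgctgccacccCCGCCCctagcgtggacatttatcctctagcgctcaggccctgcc
TIMP3: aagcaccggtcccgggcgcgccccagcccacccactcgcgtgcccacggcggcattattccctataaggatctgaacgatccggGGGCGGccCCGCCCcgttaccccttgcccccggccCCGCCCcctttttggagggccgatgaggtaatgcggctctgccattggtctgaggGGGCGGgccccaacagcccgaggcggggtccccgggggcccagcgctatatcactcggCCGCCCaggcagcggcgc

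These 4 promoters were of different kinds of sequence. The MMP10 promoter, of the inducible type, had 34.4% G and C and held the AP-1 match TGAATCA, the TATA box and a CTCF core match CCACTAGGGGG, whose first bases lay at -67, -31 and -18 from the start. The MMP14 promoter had 56.8% G and C with 1 GC box, at -66. The TIMP1 promoter had 64.8% G and C with 2 GC boxes, at -135 and -45. The TIMP3 promoter had 72.4% G and C with 5 GC boxes, the nearest at -18. No AP-1, TATA or CTCF core match lay in the MMP14, TIMP1 and TIMP3 stretches, which says only that these letters were not in these windows. Among the same 250 bases of 15812 RefSeq promoters, 5.05% held the AP-1 letters, 9.25% the TATA letters, 6.51% the CTCF core and 56.0% the GC box. The CTCF core was found in 7.60% of promoters with a region in both CTCF lists and in 5.56% of those with a region in neither list. For promoters with a region in the HFFc6 list alone the share was lower, 4.01%, and with one in the hESC-named list alone it was 6.78%. A match is a description of letters and no evidence that a factor sat there.

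At MMP10, which encodes stromelysin-2, the region over the start was among the most enriched of both ATAC lists. Fold enrichment here is the authors' ratio of signal over the peak caller's background, and it is read only within a list. The HFFc6 ATAC region chr11:102780399-102780889 had 17.2-fold enrichment, a value reached by 3.43% of that list. The H1 ATAC region chr11:102780392-102780870 had 24.2-fold enrichment, reached by 0.449% of its list. The HFFc6 CTCF region at the same place had 12.2-fold and the hESC-named CTCF region 16.7-fold enrichment, values reached by 9.75% and 14.9% of those lists. The summits of the 4 regions lay -10, 61, -43 and 32 bp from the start, all within 61 bp of it. At MMP14 the regions at the promoter had 5.89-fold (HFFc6 ATAC), 6.72-fold (H1 ATAC), 4.44-fold (HFFc6 CTCF) and 12.3-fold (hESC-named CTCF) enrichment. The H1 ATAC region ended 4 bp before the start, and the other regions covered it. At TIMP1 the corresponding values were 13.8, 9.45, 8.23 and 6.72, and at TIMP3 they were 7.92, 8.70, 2.91 and 8.25. A region over the promoter in both ATAC lists was common, at 62.4% of the 15812 RefSeq promoter windows of 300 bp, and a region in both CTCF lists was found at 50.9% of them, so the 4 of 4 here stand beside a state that most promoters share.

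Marker genes were counted as a check on the line labels. All 6 fibroblast genes of a marker list had more HFFc6-only than H1-only open regions, while 0 of 6 stem cell genes did, 5 having more H1-only regions. Over all protein-coding genes the shares were 48.4% and 41.1%. Gene ends, searched to 1 kb, separated the lines less. Of the fibroblast genes, 4 had an end region in both ATAC lists and 2 in HFFc6 alone. Of the stem cell genes, 2 had one in both lists, 3 in H1 alone and 1, POU5F1, in neither. Both lists had one at 70.5% of all genes. Of genes marking other cell types, 3 of 3 keratinocyte genes and 1 of 2 blood genes had more H1-only regions, and 1 of 2 endothelial genes had more HFFc6-only regions. The lists differed in other ways: median region width was 707 bp in the HFFc6 ATAC list and 301 bp in the H1 list, and 85.2% and 48.4% of their regions reached a −log10 q of 10. Peak lists do not give read depth, and the part of depth, region width and number of libraries in the differences below was not tested.

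Across the windows of the 10 genes, open chromatin leaned to the fibroblast line. The lean came mainly from the windows of TIMP3, TIMP2, MMP2 and MMP3. A region is called HFFc6-only when no H1 region overlaps it by at least 1 bp, and shared otherwise. More HFFc6-only than H1-only regions were found at 7 of 10 genes, against 48.4% of 19974 protein-coding genes counted the same way. More H1-only regions were found at 3 genes, MMP13, MMP14 and TIMP1, against 41.1% of all genes, and equal numbers at 0 genes, against 10.5%. The median difference, HFFc6-only minus H1-only, was 3 regions for the 10 genes and 0 for all genes. The cluster genes share part of their windows, so the 10 genes are not 10 independent counts. With no flank the number of genes with more HFFc6-only regions was 4 of 10, where 33.1% of all genes had more.

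**Figure D1:**
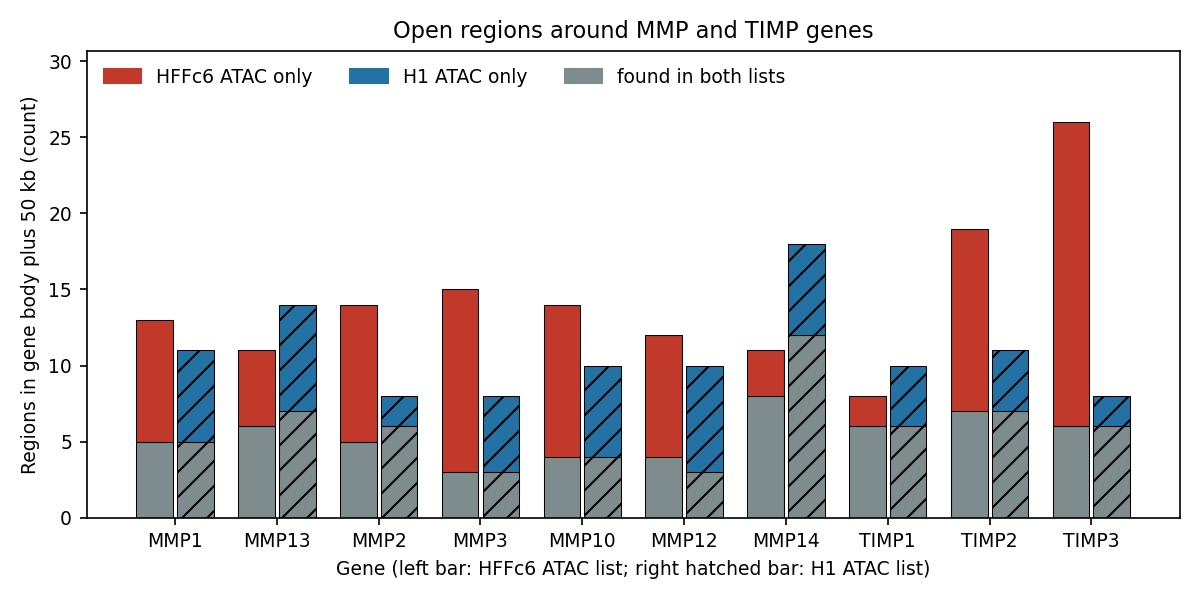
Number of ATAC regions (y axis, count) in each gene body plus 50 kb, split into list-specific and shared regions, with the HFFc6 list on the left of each pair and the H1 list, hatched, on the right. TIMP3 shows 20 HFFc6-only and 2 H1-only regions, whereas MMP13, MMP14 and TIMP1 show more H1-only regions.

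Of the HFFc6 ATAC regions near these genes, 44 of 111 were also open in H1, or 39.6% (95% Wilson interval 31.0 to 48.9%), against 34.7% in the whole HFFc6 list. Of the H1 ATAC regions, 50 of 83 were also open in HFFc6, or 60.2% (49.5 to 70.1%), against 31.8% in the whole H1 list. The H1 interval lay above the value of the whole list, and the HFFc6 interval contained it. The whole lists also hold regions outside any gene window. Per window, the median numbers of shared and H1-only H1 regions were 6 and 5.5 for the 10 genes and 5 and 5 for all genes. For shared and HFFc6-only HFFc6 regions they were 5.5 and 8.5 against 5 and 5. Whether the H1 share differs from that of gene windows in general was not tested. These intervals cover counting error only, and neighbouring regions are not independent. For the MMP genes alone the shares were 25 of 58 HFFc6 regions and 31 of 54 H1 regions, and for the TIMP genes 19 of 53 and 19 of 29. In both lists the shared regions were the more enriched. The median fold enrichment of shared and list-specific regions was 8.51 and 5.95 in the HFFc6 list and 8.46 and 5.59 in the H1 list, close to 7.88 and 5.26 and to 7.82 and 5.21 over the whole lists.

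The collagenases, MMP1 and MMP13, open the fibrillar collagen triple helix. With both gene ends searched to 1 kb, MMP1 had an open region in HFFc6 alone and MMP13 in H1 alone. From general knowledge rather than from the gene table, which carries no strand, the cluster genes are transcribed towards lower coordinates, so that their high-coordinate end is the start. At MMP1 (chr11:102789919-102798160) the high-coordinate end lay in the HFFc6-only ATAC region chr11:102798087-102798626, with 8.61-fold enrichment, and in an HFFc6-only CTCF region of 2.92-fold enrichment. That CTCF region had a −log10 q of 5.37 and a fold that 92.3% of its list reached. Neither the H1 ATAC list nor the hESC-named CTCF list had a region within 1 kb of an end of MMP1. When a region at either end counted, MMP1 was the 1 gene of the 10 open in HFFc6 alone, a state found at 5.55% of protein-coding genes, whereas 7 genes were open in each ATAC list, a state found at 70.5%. The high-coordinate end of MMP3, its start by the same strand, also lay in an HFFc6-only region. MMP3 counted as open in both lines only through its low-coordinate end. TIMP3, on the plus strand, had an HFFc6-only region at its high-coordinate end, away from its start, and its start was open in both lines.

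The MMP1 body held 1 H1 ATAC region, which no HFFc6 ATAC region overlapped. This H1-only ATAC region, chr11:102794293-102794857, had 22.5-fold enrichment. The body also held the HFFc6-only ATAC region chr11:102791469-102791943, with 3.42-fold enrichment and a −log10 q of 12.8. No CTCF region of either list overlapped that HFFc6-only region. CTCF regions of both lists overlapped the H1-only ATAC region instead, the HFFc6 one with 6.27-fold and the hESC-named one with 23.3-fold enrichment. The hESC-named value was the highest CTCF enrichment of the whole cluster in that list. A further H1-only region above MMP1, chr11:102807803-102808452, had 22.7-fold enrichment and carried an hESC-named-only CTCF region of 11.05-fold. In all, the window of MMP1 held 8 HFFc6-only and 6 H1-only regions, with 5 shared regions in each list. The difference of 2 regions was reached by 39.6% of all genes and ranged from 1 to 6 under 7 other settings.

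MMP13 (chr11:102942995-102955732), collagenase-3, had no HFFc6 ATAC region within 1 kb of an end. Its high-coordinate end lay in the weak H1-only ATAC region chr11:102955435-102955776, with 4.84-fold enrichment and a −log10 q of 5.46, and in no CTCF region. This state, open at an end in H1 alone, was found at 8.29% of protein-coding genes, and it was lost when regions were required to reach a −log10 q of 10. The most enriched regions of each list near MMP13 lay outside its body. Some 28 kb below the gene, the shared region chr11:102914403-102915187 had ATAC enrichment of 9.82-fold (HFFc6) and 14.5-fold (H1). The CTCF regions there, chr11:102914320-102915213 in HFFc6, had 13.0-fold (HFFc6) and 18.3-fold (hESC-named) enrichment, the highest CTCF values of the window in both lists. Nearer to the gene, the shared region chr11:102940763-102941443 had ATAC enrichment of 9.06-fold (HFFc6) and 16.6-fold (H1), and CTCF enrichment of 11.95-fold (HFFc6) and 15.8-fold (hESC-named). Above it, the shared region chr11:102995937-102996932 had 18.5-fold enrichment in the HFFc6 ATAC list, with an HFFc6-only CTCF region of 6.95-fold. The window held 5 HFFc6-only and 7 H1-only regions. The difference of -2 turned to 7 with a 100 kb flank and to 5 with that q limit, so it has no settled sign.

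The gelatinase MMP2, which digests denatured collagen and type IV collagen of basement membranes, was open at its start in both lines and had many further open regions in HFFc6. MMP2 (chr16:55478830-55506691) had the HFFc6 ATAC region chr16:55478814-55481144 at its low-coordinate end, with 8.18-fold enrichment. The H1 ATAC region there, chr16:55478725-55479900, had 8.11-fold enrichment, and the CTCF regions had 5.57-fold (HFFc6) and 9.94-fold (hESC-named) enrichment. In the body, 2 HFFc6-only regions stood out. chr16:55486878-55488227 had 13.6-fold and chr16:55499712-55500910 had 9.80-fold enrichment, and each carried an HFFc6-only CTCF region. Close to the second of these lay the H1-only ATAC region chr16:55501561-55501841, with 6.69-fold enrichment and an hESC-named-only CTCF region of 13.6-fold.

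About 14 kb below the start of MMP2 lay the strongest region of the locus in all 4 lists. It had 15.9-fold enrichment in HFFc6 ATAC (chr16:55464793-55465850) and 17.8-fold in H1 ATAC. Its CTCF enrichment was 15.7-fold in the HFFc6 list and 25.8-fold in the hESC-named list, values reached by 1.74% and 1.49% of those lists. The window of MMP2 held 9 HFFc6-only and 2 H1-only regions. The difference of 7 was reached by 10.6% of all genes, and the difference per 100 kb, 5.47, by 5.48%. It was 0 within the gene body alone, where each list had 2 regions of its own, and ranged up to 11 under the other settings, and 7 of the 9 HFFc6-only regions lay in the flanks. Of those 7 regions, 3 had an end of CAPNS2 as the nearest gene end, and those 3 had 14.8, 13.3 and 6.90-fold enrichment. Of the rest, chr16:55437719-55438076, with 3.99-fold enrichment, was nearest to an end of MMP2, and the others to an end of LPCAT2. The regions in the flanks therefore cannot be given to MMP2 alone.

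The stromelysins, MMP3 and MMP10, cut a broad range of matrix proteins and activate other MMPs. They sit on either side of MMP1, and MMP3 had the wider lean to HFFc6. At MMP3 (chr11:102835801-102843609) the ends differed from each other. The high-coordinate end lay in the HFFc6-only ATAC region chr11:102843140-102844100, with 13.1-fold enrichment and an HFFc6-only CTCF region of 7.05-fold. Just inside the low-coordinate end lay a shared region, with 10.2-fold enrichment in HFFc6 (chr11:102836011-102837454) and 13.4-fold in H1 (chr11:102836446-102836930), and there the hESC-named list alone had a CTCF region, of 5.01-fold. Counted by either end, MMP3 was therefore open in both lines, although its high-coordinate end was in the HFFc6 list only. Above MMP3, the HFFc6-only region chr11:102850914-102851745 had 14.8-fold enrichment in ATAC and 10.8-fold in CTCF.

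The window of MMP3 held 12 HFFc6-only and 5 H1-only regions, a difference of 7 that was reached by 10.6% of all genes. An end of MMP3 was the nearest gene end for 6 of the 15 HFFc6 and 3 of the 8 H1 ATAC regions in this window. Ends of MMP1 and MMP12 were nearest to the rest, so the regions cannot be given to MMP3 alone. Per 100 kb of window the difference was 6.49, a value reached by 2.99% of all genes. It was 1 within the body, 4 with a 10 kb flank and 0 with a 100 kb flank, where HFFc6-only and H1-only regions both numbered 14. The window of MMP10 held 10 HFFc6-only and 6 H1-only regions, a difference of 4 that was reached by 24.7% of all genes and was 0 with a 10 kb or a 100 kb flank. An end of MMP10 was the nearest gene end for 3 of the 14 HFFc6 and 4 of the 10 H1 ATAC regions there, so the same limit holds for MMP10. Its body held 1 region in each of the 4 lists, the promoter regions described above, and no list-specific region.

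MMP12, the macrophage metalloelastase, was the 1 member with no ATAC region within 1 kb of an end in either line, a state found at 15.7% of protein-coding genes. Its body (chr11:102862736-102874982) held the HFFc6-only ATAC region chr11:102868031-102868973, with 15.4-fold enrichment and an HFFc6-only CTCF region of 3.94-fold. It also held the H1-only ATAC region chr11:102863743-102864001, with 5.59-fold enrichment and an hESC-named-only CTCF region of 3.83-fold. That H1 region began 1007 bp from the low-coordinate end, just outside the 1 kb limit. The window held 8 HFFc6-only and 7 H1-only regions, a difference of 1. Among regions with a −log10 q of at least 10 the numbers were 9 and 1, a difference of 8.

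Taken as 1 locus of 285 kb (chr11:102720502-103005732), the 5 cluster genes had 33 HFFc6 and 28 H1 ATAC regions. HFFc6 regions covered 8.32% of it and H1 regions 3.92%. There were 21 HFFc6-only and 15 H1-only regions, with median folds of 7.24 and 5.30. The 12 shared HFFc6 regions and the 13 shared H1 regions had medians of 8.51 and 9.57. HFFc6-only and H1-only regions were interspersed from below MMP10 up to MMP13, and above MMP13 the 3 list-specific open regions were all HFFc6-only.

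**Figure D2:**
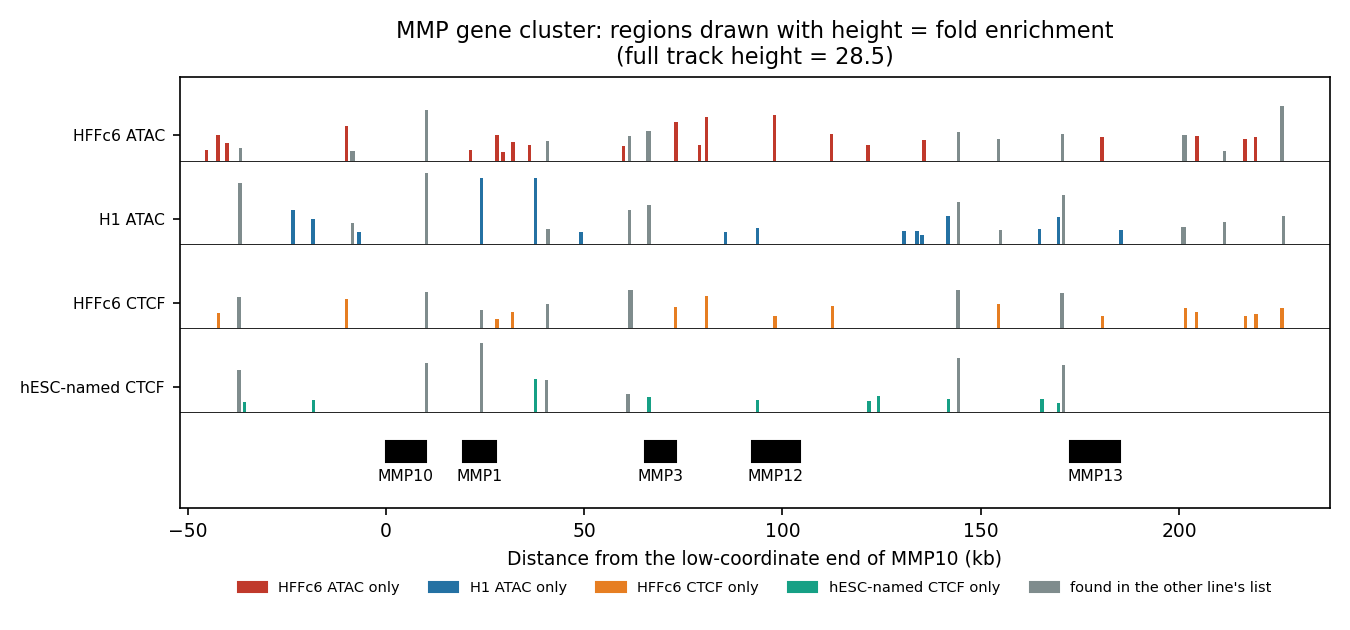
Regions of the 4 lists along the chromosome 11 MMP cluster (x axis, kb from the low-coordinate end of MMP10), with bar height giving the deposited fold enrichment on a linear scale and colour giving list-specific or shared. Black boxes are the gene bodies, and regions narrower than the thinnest bar are drawn at its width. The MMP1 body holds the tall H1-only ATAC bar of 22.5-fold, and the high-coordinate end of MMP1 holds an HFFc6-only bar of 8.61-fold.

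MMP14, the membrane-type MMP that activates the MMP2 proenzyme at the cell surface together with TIMP2, was open in both lines. Its start (MMP14, chr14:22836585-22847758) lay in the HFFc6 ATAC region chr14:22836227-22839387, which was 3161 bp wide. In H1, 3 separate regions of 362, 267 and 414 bp overlapped parts of that stretch and left most of it uncovered. One wide HFFc6 region thus counted once where H1 had several, and 8 shared HFFc6 regions corresponded to 12 shared H1 regions over the window. The locus also held the highest hESC-named CTCF enrichment near any of the 10 genes, 26.6-fold at chr14:22852787-22853893, where the HFFc6 CTCF region had 9.62-fold. The most enriched HFFc6 ATAC region, chr14:22791215-22791748 near SLC7A7, was HFFc6-only and had 14.8-fold enrichment. The most enriched H1 ATAC region, chr14:22871230-22871883 near LRP10, was shared and had 12.5-fold enrichment. The HFFc6 CTCF list had its highest value, 10.4-fold, in the shared region chr14:22822496-22823535 near SLC7A7. The window held 3 HFFc6-only and 6 H1-only regions. The difference of -3 turned to 1 with a 10 kb flank and to 2 with a 50% overlap or a −log10 q of at least 10. Ends of SLC7A7, MRPL52, LRP10, REM2 and RBM23 share this window, so its regions cannot be given to MMP14 alone.

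The difference in list-specific open regions ran from -2 to 18 among the 3 inhibitors and from -3 to 7 among the 7 enzymes. TIMP1 (chrX:47582436-47586789), a secreted inhibitor of most soluble MMPs, lies within SYN1, and most of the open regions around it were shared. Its window held 6 shared regions in each list, 2 HFFc6-only and 4 H1-only regions. The most enriched was far from TIMP1 itself, at chrX:47540873-47541650 beside ARAF. Its ATAC enrichment was 20.9-fold in HFFc6, a value reached by 0.2196% of that list, and 17.9-fold in H1. Its CTCF enrichment was 15.7-fold in the HFFc6 list and 14.7-fold in the hESC-named list. The highest hESC-named CTCF value, 16.1-fold, lay at chrX:47569001-47569504, where the HFFc6 CTCF region had 3.37-fold and neither line had an ATAC region. Within the TIMP1 body, H1 had an own region of 4.12-fold with an hESC-named-only CTCF region of 9.13-fold. The difference of -2 turned to 1 with a 10 kb or a 100 kb flank.

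TIMP2 (chr17:78852977-78925387), which inhibits MMPs and also takes part in MMP2 activation by MMP14, was open at its high-coordinate end in both lines. The HFFc6 ATAC region there, chr17:78925317-78926422, had 9.03-fold enrichment and the H1 region, chr17:78925345-78925560, had 8.25-fold. The CTCF regions had 8.004-fold (HFFc6) and 4.93-fold (hESC-named) enrichment. The most enriched ATAC region of each line lay outside the body. It was the HFFc6-only region chr17:78822259-78823445 near USP36, with 16.9-fold enrichment, and in H1 the H1-only region chr17:78940752-78941078, with 16.6-fold. In the body the lines had different strong sites. The HFFc6-only region chr17:78861898-78862799 had 16.3-fold enrichment in ATAC and 12.7-fold in HFFc6-only CTCF. Some 3 kb away, the H1-only region chr17:78865813-78866288 had 12.9-fold ATAC enrichment. CTCF lay there in both lists, with 5.33-fold enrichment in the HFFc6 list and 26.5-fold in the hESC-named list, reached by 1.17% of the hESC-named list. The window held 12 HFFc6-only and 4 H1-only regions. USP36, CEP295NL and LGALS3BP share it, and for 8 of the 12 HFFc6-only regions the nearest gene end belonged to 1 of these 3 genes, so the regions cannot be given to TIMP2 alone. The difference of 8 was reached by 7.79% of all genes and ranged from 2 to 12 under the other settings.

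TIMP3, the inhibitor that binds to the matrix, had the largest lean to HFFc6 of the 10 genes. TIMP3 (chr22:32801705-32863041) lies within SYN3. Its window held 20 HFFc6-only and 2 H1-only regions with 6 shared regions in each list, and HFFc6 regions covered 14.5% of it against 2.43% for H1 regions. The difference of 18 was reached by 0.696% of all genes, and the difference per 100 kb, 11.2, by 0.160%. Other settings gave 9 to 22, always in the same direction. Since the gene was one of 10 looked at, this rank is a description.

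The HFFc6-only regions at TIMP3 were split evenly between the gene body and its flanks, with overlapping folds. The 10 in the gene body had folds of 1.81 to 4.47 (median 2.20), and 4 of them reached a −log10 q of 10. The 10 outside the body had folds of 2.54 to 15.4 (median 4.76), and 8 reached that q. The strongest of these, chr22:32897060-32897980, had 15.4-fold enrichment, followed by chr22:32788862-32789828 with 13.7-fold, and both carried an HFFc6-only CTCF region, of 6.49-fold and 4.64-fold. The start was open in both lines, through the HFFc6 region chr22:32801080-32804499 of 3420 bp and the H1 region chr22:32801360-32802235 of 876 bp. The shared H1 regions in the body reached 14.9-fold at chr22:32823164-32823781, where the HFFc6 region had 2.32-fold. In CTCF, the highest HFFc6 value was 11.8-fold in the shared region chr22:32796349-32797606. The highest hESC-named value was 21.7-fold in the shared region chr22:32836181-32836932 of the body, where the HFFc6 CTCF region had 5.05-fold and the DNA was open in HFFc6 alone.

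**Figure D3:**
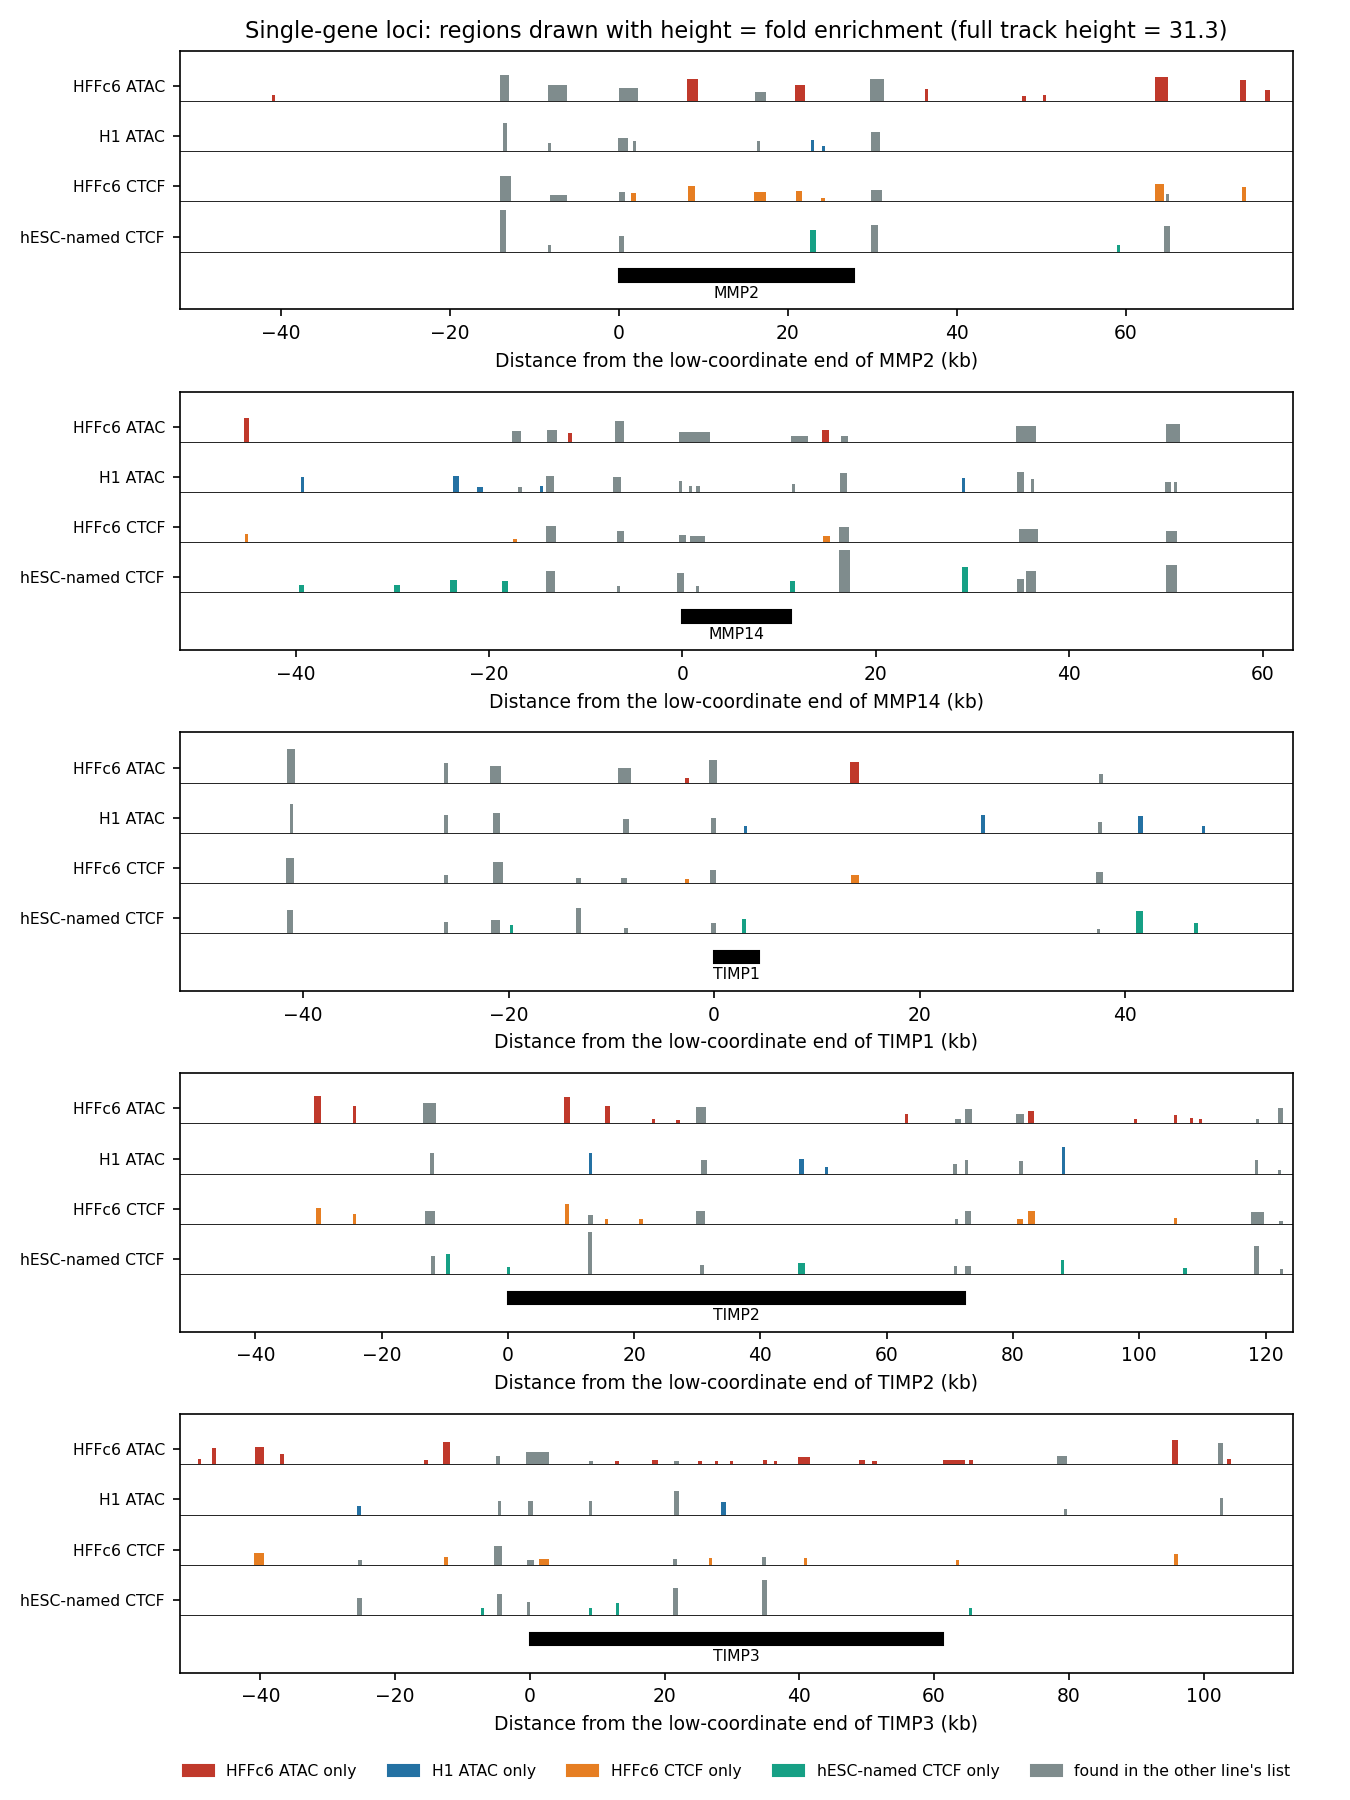
Regions of the 4 lists at MMP2, MMP14, TIMP1, TIMP2 and TIMP3 (x axis, kb from each gene's low-coordinate end), with bar height giving the deposited fold enrichment on a linear scale. TIMP3 shows many low HFFc6-only ATAC bars in the gene body, of 1.81 to 4.47-fold, and taller ones of up to 15.4-fold outside it.

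Ordered by HFFc6-only minus H1-only regions per 100 kb, the genes ran from TIMP3 (11.2) through MMP3 (6.49), MMP2 (5.47), TIMP2 (4.64), MMP10 (3.63), MMP1 (1.85) and MMP12 (0.891) to MMP13 (-1.77), TIMP1 (-1.92) and MMP14 (-2.70). With a single list per line there is no spread to set neighbours in this order apart. The plot of the differences under other settings shows which genes kept their sign.

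**Figure D4:**
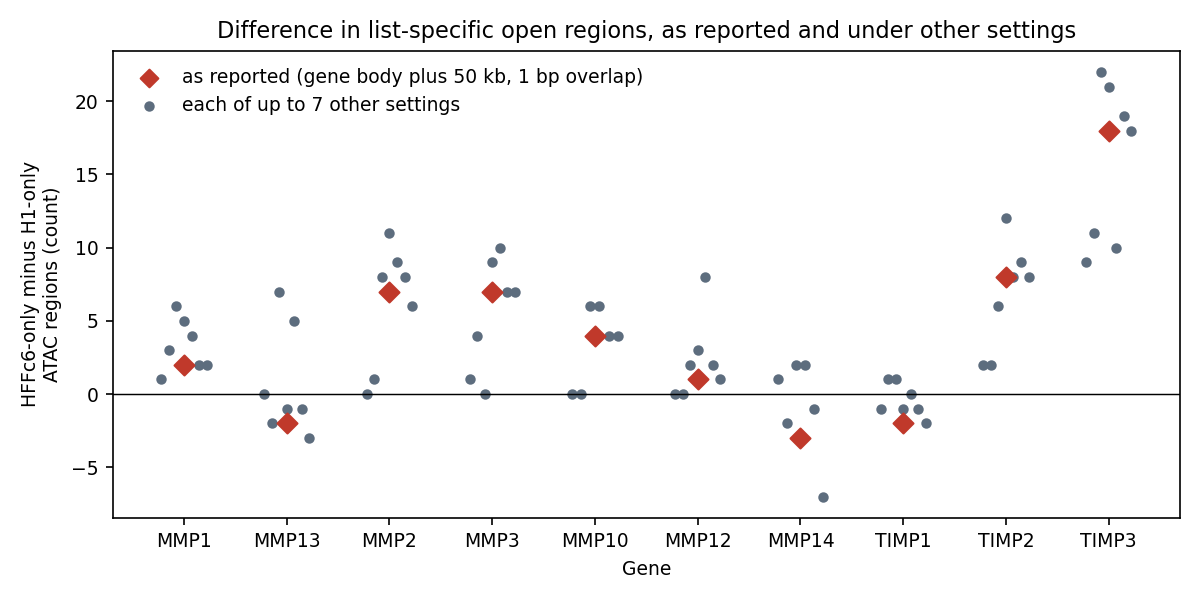
HFFc6-only minus H1-only ATAC regions (y axis, count) for each gene as reported (diamonds) and under up to 7 other flanks, overlaps, q limits, list lengths or region widths (dots). TIMP3, TIMP2 and MMP1 stay above 0 in every setting shown, whereas MMP13, MMP14 and TIMP1 have dots on both sides of 0.

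Most CTCF regions near these genes were in open DNA. An HFFc6 ATAC region overlapped 73 of 80 HFFc6 CTCF regions, or 91.25% (95% Wilson interval 83.0 to 95.7%), against 84.99% of the whole list. Of the hESC-named CTCF regions, 51 of 70 overlapped an H1 ATAC region, or 72.9% (61.5 to 81.9%), against 72.6% of that list. Seen from the open regions, 69 of 111 HFFc6 ATAC regions carried HFFc6 CTCF, or 62.2% (52.9 to 70.6%), against 43.9% of the whole list. For H1, 52 of 83 ATAC regions carried hESC-named CTCF, or 62.7% (51.9 to 72.3%), against 41.3%. Both of these intervals lay above the values of the whole lists, which also hold regions outside any gene window. Whether these shares differ from those of gene windows in general was not tested. Which of the CTCF regions are binding of CTCF and which are Tn5 cutting at open DNA was not tested.

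CTCF regions were counted by gene in the same way. More HFFc6-only than hESC-named-only CTCF regions were found at 7 genes, against 36.8% of all genes, more hESC-named-only regions at 2 genes, against 48.6%, and equal numbers at 1, against 14.6%. The 2 genes were MMP14 and TIMP1, with differences of -3 and -2, and MMP12 had 5 list-specific regions in each list. MMP2 had the highest difference, 5, from 7 HFFc6-only and 2 hESC-named-only regions, a value reached by 7.86% of all genes. MMP13, TIMP2 and TIMP3 each had a difference of 3, which at MMP13 stood beside -2 in ATAC. MMP3 had 2, and MMP1 and MMP10 had 1. A region within 1 kb of an end was found in both CTCF lists at 7 genes, against 61.0% of all genes, in HFFc6 alone at 1, MMP1, against 7.72%, in the hESC-named list alone at 0, against 8.58%, and in neither at 2, MMP12 and MMP13, against 22.7%. Among regions with a −log10 q of at least 10, MMP1 had no CTCF region at an end, MMP3 and TIMP2 had one in HFFc6 alone, and 5 genes had one in both lists.

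**Figure D5:**
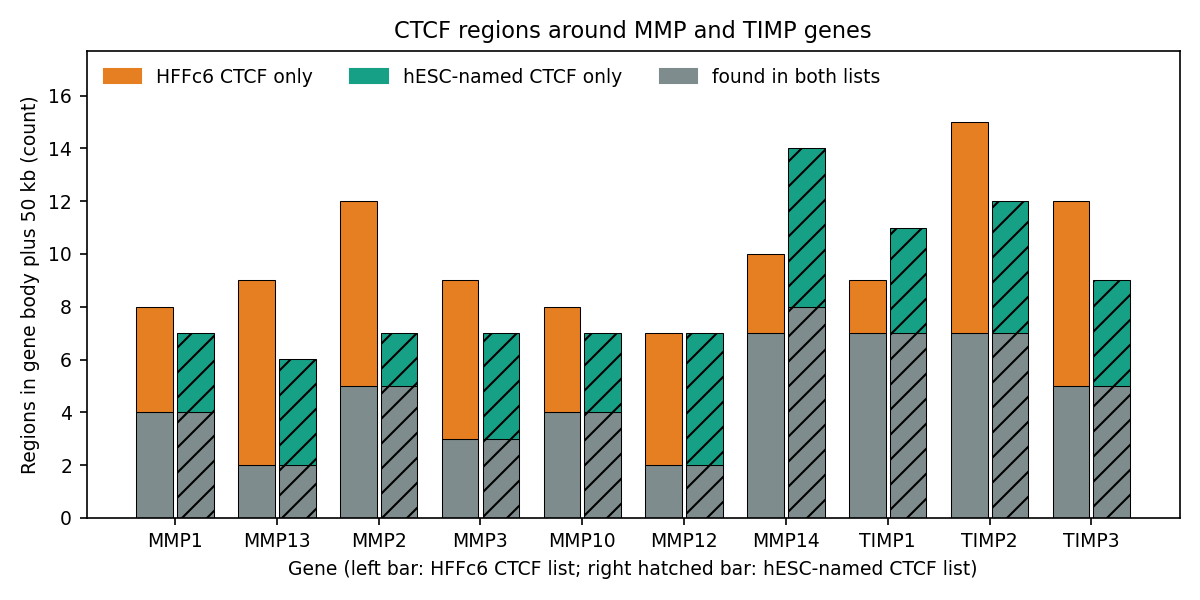
Number of CTCF regions (y axis, count) in each gene body plus 50 kb, with the HFFc6 list on the left of each pair and the hESC-named list, hatched, on the right. MMP2 shows 7 HFFc6-only and 2 hESC-named-only regions, and MMP14 and TIMP1 show more hESC-named-only regions.

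CTCF regions were then sorted by the lines in which their DNA was open. Of the 42 HFFc6-only CTCF regions, 33 lay in DNA open in HFFc6 alone, or 78.6%, against 70.2% in the whole list, and 6 in DNA open in both lines. Of the 38 shared HFFc6 CTCF regions, 31 lay in DNA open in both lines, or 81.6%, against 73.4% in the whole list. Another 3 each lay in DNA open in HFFc6 alone and in H1 alone. The shared site in the MMP1 body was among those open in H1 alone. Of the 31 hESC-named-only CTCF regions, 13 lay in DNA open in H1 alone, or 41.9%, against 53.5% in the whole list, and 12 in DNA open in neither line, or 38.7%, against 32.1%. Shared CTCF regions were the more enriched, with median folds of 7.21 against 5.33 for HFFc6-only regions and 12.3 against 5.01 for hESC-named-only regions. The whole lists had the same order, with 8.19 against 4.69 and 12.3 against 5.07. In the chromosome 11 cluster the gap was wider, with medians of 11.95 for 7 shared and 5.54 for 15 HFFc6-only regions, and 15.8 for 7 shared and 3.99 for 10 hESC-named-only regions.

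Other genes of the pathway did not all lean the same way. Over all protein-coding genes, 48.4% had more HFFc6-only open regions, 41.1% had more H1-only ones and 10.5% had equal numbers. Of 18 further genes, 16 MMPs with TIMP4 and RECK, a membrane-anchored MMP inhibitor, 7 had more HFFc6-only and 11 more H1-only open regions, with a median difference of -4. The other inhibitors lay on the HFFc6 side, RECK with a difference of 8 and TIMP4 with 5. Along chromosome 11 the 4 other MMP genes below MMP10 leaned to H1, with differences of -4 (MMP7), -6 (MMP20), -5 (MMP27) and -4 (MMP8), while MMP10 had 4, MMP1 2, MMP3 7, MMP12 1 and MMP13 -2. Neighbouring windows overlap here. An end region in HFFc6 alone was found at MMP9, the other gelatinase, and MMP23B, and in H1 alone at MMP7, matrilysin, and MMP26. These states were found at 5.55% and 8.29% of protein-coding genes.

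Of 8 genes of the plasminogen system, whose protease plasmin activates several MMPs, 4 had more HFFc6-only and 2 more H1-only regions. For these and the lists below, the shares over all genes were again 48.4% and 41.1%. PLAU, the urokinase activator, and its receptor PLAUR were open at an end in HFFc6 alone and carried CTCF there in HFFc6 alone. An end region in HFFc6 alone was found at 5.55% of protein-coding genes for ATAC and at 7.72% for CTCF. Of 12 ADAM and ADAMTS proteases, relatives that some TIMPs also inhibit, 9 had more HFFc6-only regions, the highest difference being 13 at ADAM12, and all 12 had an end region in each ATAC list. Of 7 FOS and JUN genes, which make AP-1, 3 had more HFFc6-only and 4 more H1-only regions, and all 7 had an end region in each ATAC list. Most genes share that last state, which was found at 70.5% of protein-coding genes.

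The genes with the most similar counts were found over 8 values, the shared and list-specific counts of the 4 lists on the log2(count + 1) scale. The closest pair was MMP10 and CNDP1, at a Euclidean distance of 0.193, where the median distance from MMP10 to all genes was 2.55. TIMP1 lay closest to CATSPER4 (0.272), MMP1 to ZNF783 (0.315), MMP3 to DYRK2 (0.375) and MMP14 to C2 (0.411). TIMP2 lay closest to CCN5 (0.418), MMP2 to CYB5B (0.431), MMP12 to TRAK2 (0.443) and MMP13 to ZDHHC19 (0.554). TIMP3 had the most distant nearest gene, TENT4B (0.602), which had 17 HFFc6-only and 3 H1-only open regions.

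The limit of 50 kb cut through loci with regions on both sides of it. Within 5 kb inside the limit lay 7 HFFc6 ATAC and 2 H1 ATAC regions, and within 5 kb outside it 6 and 5. For CTCF, 3 HFFc6 and 2 hESC-named regions lay inside and 4 of each outside. The last HFFc6 ATAC region taken lay 49514 bp from TIMP2, with 9.57-fold enrichment, and the nearest one not taken lay 50334 bp from MMP14, with 12.1-fold.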

How the data were processed

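The values came from 4 deposited peak lists in the coordinates of hg38. The tools named are BWA, MACS2 and bedtools, per the submitters' processing notes. Versions, filters, any control, any Tn5 offset of read ends and how replicates were pooled were not given in the sources used here. The authors deposited a score for each peak, which was not used, and its fold enrichment, a ratio to background made by the peak caller. The authors' −log10 q-value served as a filter in an alternative, and no list held a q above 0.05.

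Regions on chromosomes 1 to 22 and X were kept with Python 3.11.15 and pandas 2.3.3, and 0 overlapped another of their own list. Gene bodies and promoters came from RefSeq tables of GRCh38 patch 14, matched by symbol for 10 of 10 genes and by promoter for 4. Shares carry 95% Wilson intervals. No test was possible with 1 list per group, and depth is unknown. Counts over 19974 protein-coding genes are the background. Replicates could not be compared, since the lists hold no values per library. The overlap rule was tested on simulated data, 3 lists of 4000 regions, with 0 disagreements. Alternatives were flanks of 0, 10 and 100 kb, a 50% overlap, a −log10 q of at least 10, lists of equal length, 500 bp at each summit and gene ends in place of start sites.

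The text names the 10 genes, the region of highest fold enrichment per locus and list, regions at gene ends and promoters, further regions chosen after their values were seen, pathway genes with an end region in 1 line alone, and the gene of most similar counts. Genes, lists and comparisons were chosen with earlier results of these data known. TDGF1 was matched as CRIPTO.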

Additional observations from a re-analysis of the deposited data

How the results depend on the processing

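Of 114 recomputed results, 7 changed sign, 14 moved and 93 did neither. A count was taken as moved past 1.5 times its reported value. A share, or the HFFc6-only share behind a difference, was taken as moved outside its 95% Wilson interval, which is wide for a few regions. Among the 93, the difference fell to 0 at MMP3 and MMP10 with a 100 kb flank, at MMP10 and MMP12 with 10 kb, at MMP12 and MMP13 with no flank and at TIMP1 with a −log10 q of at least 10. The number of genes with more HFFc6-only than H1-only open regions, 7 of 10, was 4 with no flank, where short gene bodies held few regions, and 7 to 9 under the other settings, against 41.0 to 68.6% of all genes. With no flank the difference was 0 at MMP2, 1 at MMP3 and -1 at TIMP1, MMP10 and MMP14 had no list-specific region, and the share of HFFc6 CTCF regions in HFFc6 ATAC was 82.14%. With a 10 kb flank the difference was 4 at MMP3, 1 at MMP14 and 1 at TIMP1, and with 100 kb 7 at MMP13 and 1 at TIMP1. A 50% overlap gave 2 at MMP14, 18.92% of HFFc6 ATAC regions found in H1 and 33.75% of HFFc6 CTCF regions with an hESC-named partner. A −log10 q of at least 10 gave 5 at MMP13, 8 at MMP12, 2 at MMP14 and 96.61% of HFFc6 CTCF regions in HFFc6 ATAC. With 500 bp at each summit, 48.19% of H1 regions were found in HFFc6 and 82.5% of HFFc6 CTCF regions in HFFc6 ATAC. Scoring gene ends gave a region at 8 of 10 genes in each ATAC list, against 4 of 4 promoters, since more genes were scored. Other causes were not tested. Lists of equal length changed no result beyond these limits. No paired analysis was possible because each group is a single deposited list with no values per library, and for the same reason no library could be left out. Depth is unknown, so the absence of a region from a list is no evidence of closed chromatin.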
